A study of Mus musculus with 15 samples.

Results

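Stum, Nxpe2, Gpr34, Hemgn and Sorl1 are 5 mouse genes that share a pattern in cultured B cells: all were highest in iGC cells and lowest, or near lowest, in IgE plasma cells. They were picked by symbol for high levels in iGC cells against day 6 or for a large fall in IgE plasma cells, so those differences are described here without a test. All 5 were found among 51912 gene identifiers, and all 5 were among the 15692 genes that passed a filter on low counts; that filter keeps a gene through its highest group. The library set came from wild-type mouse B cells grown for 6 days on 40LB cells, a feeder line that drives B cell growth, with 100 ng/ml IL-4. The day 6 group (D6) is the unsorted culture at that point. For the other 4 groups the cells were taken off the feeders, kept 2 more days in medium without stimulation, and sorted at day 8. The sorted groups were IgE iGC and IgG1 iGC, the labels' name for cells that had not become plasma cells, and IgE PC and IgG1 PC, the plasma cells of each isotype. Each group had 3 biological replicates; strain and age are not given in the sources used here. A difference between iGC cells and D6 therefore joins feeder removal, 2 days of culture and sorting, and these cannot be told apart.

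Total counts ran from 17.7 M in IgE iGC replicate 3 to 54.1 M in IgG1 PC replicate 2. Ighe made up 85.7 to 87.8% of Ighe plus Ighg1 counts in IgE iGC and 98.5 to 98.6% in IgE PC, against 4.74 to 5.74% in IgG1 iGC, 1.71 to 2.73% in IgG1 PC and 17.0 to 17.3% at D6. The summed TPM of 10 plasma cell markers was 10530 to 11570 in IgE PC and 6813 to 8086 in IgG1 PC, and at most 1075 elsewhere. All 10 B cell markers were detected above 1 TPM in every group on average.

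The members belong to different gene families, and most are known outside B cells. Sorl1 encodes a sorting receptor of the VPS10 domain family that moves cargo between the Golgi and endosomes together with retromer. Gpr34 encodes a G protein-coupled receptor for lysophosphatidylserine, a lipid released from cell membranes, and is known from microglia. Hemgn encodes hemogen, a nuclear protein of blood-forming cells. Nxpe2 belongs to the neurexophilin and PC-esterase domain family, whose functions are little known. Stum is named for a fly gene needed in mechanosensory neurons.

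Stum lies on chromosome 1 at 180432387 to 180483504, Nxpe2 on chromosome 9 at 48318006 to 48353454, Hemgn on chromosome 4 at 46393989 to 46413506 and Sorl1 on chromosome 9 at 41964720 to 42124297, all on the minus strand (GENCODE vM21, GRCm38). Gpr34 lies on the plus strand of chromosome X at 13632089 to 13640858. That the genes moved together follows from their choice, so their promoters are given as a description only. The 250 bases before the annotated start are shown for the 4 with a RefSeq promoter entry (GRCm38.p6), read 5′ to 3′ on the gene's strand, at chr1:180483505-180483754 (Stum), chr9:48340899-48341148 (Nxpe2), chr4:46404184-46404433 (Hemgn) and chr9:42124298-42124547 (Sorl1). The RefSeq starts of Nxpe2 and Hemgn lie inside the GENCODE spans. Capitals mark matches to any of 9 short motifs searched on both strands.
Stum: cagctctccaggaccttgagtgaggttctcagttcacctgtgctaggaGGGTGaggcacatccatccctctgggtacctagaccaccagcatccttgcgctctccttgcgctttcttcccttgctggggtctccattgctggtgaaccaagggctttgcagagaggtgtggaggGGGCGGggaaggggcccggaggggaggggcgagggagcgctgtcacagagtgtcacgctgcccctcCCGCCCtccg
Nxpe2: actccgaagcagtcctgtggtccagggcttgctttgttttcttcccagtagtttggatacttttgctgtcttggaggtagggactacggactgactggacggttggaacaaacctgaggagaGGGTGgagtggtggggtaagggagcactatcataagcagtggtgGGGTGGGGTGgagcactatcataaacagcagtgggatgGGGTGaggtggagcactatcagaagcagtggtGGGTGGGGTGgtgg
Hemgn: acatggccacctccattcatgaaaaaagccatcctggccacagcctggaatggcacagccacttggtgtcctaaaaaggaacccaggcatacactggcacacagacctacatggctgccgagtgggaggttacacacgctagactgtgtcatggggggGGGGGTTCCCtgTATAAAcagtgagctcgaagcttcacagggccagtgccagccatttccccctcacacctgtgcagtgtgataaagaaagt
Sorl1: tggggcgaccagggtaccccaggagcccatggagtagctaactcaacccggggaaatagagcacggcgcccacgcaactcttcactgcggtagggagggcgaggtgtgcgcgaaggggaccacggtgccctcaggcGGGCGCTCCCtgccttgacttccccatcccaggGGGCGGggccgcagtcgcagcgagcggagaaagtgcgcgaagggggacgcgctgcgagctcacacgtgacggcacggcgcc

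The windows differed in base composition. Sorl1 held 26 CG pairs at 69.6% GC, Stum 9 at 63.6%, and Nxpe2 and Hemgn 3 each at 54.8% and 54.4%, beside medians of 6 CG pairs and 52.4% over 32851 promoters. RefSeq gives Sorl1 a second start inside the gene, whose window (chr9:42077214-42077463) held 9 CG pairs at 47.2% GC and no motif match. No motif was found in all 4 windows shown. The GC box GGGCGG matched in Stum at 2 places and in Sorl1 at 1, and 32.7% of all promoters hold it. The letters CACCC matched 6 times in Nxpe2, within a repeated stretch, and at 1 place in Stum; 52.0% of promoters hold them. TATAAA matched in Hemgn only, 80 bases before the start (12.4% of promoters). The loose NF-kB pattern (GGGA, any 4 bases, CC) matched in Hemgn and in Sorl1 at 1 place each (17.6% of promoters). The GATA pattern AGATAA (9.99%), the FOXO pattern GTAAACA (3.17%), the octamer ATGCAAAT (1.60%), the AP-1 pattern TGANTCA (6.75%) and the IRF pattern of GAAA repeated after any 2 bases (2.98%) had no match in these 4 windows. Only these letters were searched, so other GATA forms, such as TGATAA in Hemgn and TGATAG on the opposite strand in Nxpe2, are not marked.

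Stum, Nxpe2 and Gpr34 were close to absent at D6 and were among the most raised genes in iGC cells. Hemgn and Sorl1 were already expressed at D6 and were higher in iGC cells by a smaller factor. Levels are in CPM, each gene's count scaled to the TMM-adjusted total of its library, given in the order of replicates 1, 2 and 3.

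Stum was at 0.681, 0.521 and 0.660 CPM at D6, at 81.4, 73.2 and 73.4 CPM in IgE iGC, and at 66.5, 65.4 and 65.6 CPM in IgG1 iGC. Its levels were 2.24, 2.65 and 1.36 CPM in IgE PC and 11.3, 23.8 and 25.4 CPM in IgG1 PC. The 5 groups did not overlap: D6 was lowest, then IgE PC, IgG1 PC, IgG1 iGC and IgE iGC. The fitted log2 fold change over D6 was 6.93 (SE 0.32) in IgE iGC and 6.72 (SE 0.32) in IgG1 iGC, which placed Stum 8th and 9th from the top among all genes tested.

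Nxpe2 was at 0.340, 0.403 and 0.279 CPM at D6, at 37.9, 37.5 and 38.7 CPM in IgE iGC, and at 44.3, 45.4 and 47.5 CPM in IgG1 iGC. Its levels were 1.34, 0.979 and 1.01 CPM in IgE PC and 4.41, 11.2 and 7.62 CPM in IgG1 PC. Its order was that of Stum except at the top, where every IgG1 iGC library was above every IgE iGC library. The log2 fold change over D6 was 6.78 in IgE iGC and 7.05 in IgG1 iGC (SE 0.30 each), the 9th and 7th highest of all genes.

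Gpr34 was the least abundant member, with 3, 3 and 6 counts in the D6 libraries (0.0681, 0.0711 and 0.152 CPM) and 5, 7 and 3 counts in IgE PC (0.145, 0.221 and 0.105 CPM). It was at 4.50, 4.64 and 4.80 CPM in IgE iGC, at 8.999, 12.05 and 13.85 CPM in IgG1 iGC, and at 1.09, 4.29 and 1.88 CPM in IgG1 PC. D6 and IgE PC overlapped, IgG1 PC was above both, and IgG1 iGC was highest in every library. Summed over libraries, 458 counts in IgE iGC against 12 at D6 gave a ratio of 48.3, and 1294 counts in IgG1 iGC gave 120.4. These ratios rest on few D6 counts, and the reads carry no molecular identifiers and may repeat a molecule.

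Hemgn was at 7.06, 7.54 and 6.75 CPM at D6, at 50.3, 47.5 and 50.8 CPM in IgE iGC, and at 42.8, 37.2 and 35.3 CPM in IgG1 iGC. Its levels were 1.02, 1.26 and 1.116 CPM in IgE PC and 5.53, 10.7 and 9.80 CPM in IgG1 PC. IgE PC was the lowest group, D6 and IgG1 PC overlapped, and both iGC groups were above the rest. The log2 fold change over D6 was 2.80 in IgE iGC and 2.43 in IgG1 iGC (SE 0.16 each), ranks 228 and 339.

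Sorl1 was the most abundant member, at 136.6, 109.8 and 107.0 CPM at D6, at 352.7, 339.5 and 362.8 CPM in IgE iGC, and at 327.9, 294.7 and 294.9 CPM in IgG1 iGC. It was at 8.94, 11.3 and 7.98 CPM in IgE PC and at 83.4, 158.3 and 149.7 CPM in IgG1 PC. The order was that of Hemgn, and again D6 and IgG1 PC overlapped. The log2 fold change over D6 was 1.58 in IgE iGC and 1.38 in IgG1 iGC (SE 0.19 each), ranks 927 and 1206.

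**Figure D1:**
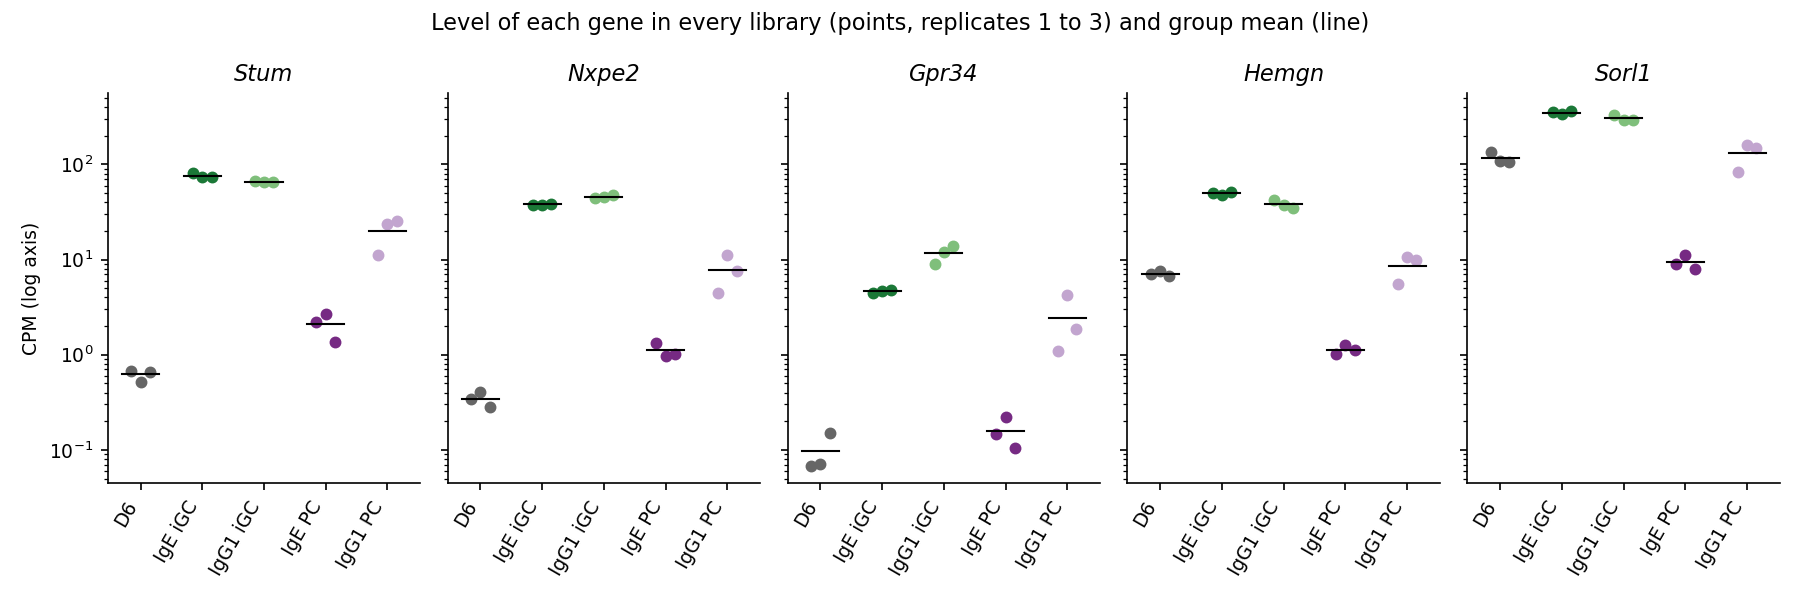
CPM of each gene on a log axis in every library (points) with the group mean (line), for D6, IgE iGC, IgG1 iGC, IgE PC and IgG1 PC. Stum, Nxpe2 and Gpr34 start below 1 CPM at D6, whereas Hemgn and Sorl1 start at means of 7.11 and 117.8 CPM and end lower in IgE PC than at D6.

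Per gene length, Sorl1 led in each group but its mean TPM of 65.7 ± 2.01 in IgE iGC was followed by Hemgn at 33.9 ± 1.16, Stum at 23.8 ± 1.02, Nxpe2 at 21.8 ± 1.37 and Gpr34 at 3.68 ± 0.123 (SD, n = 3). In IgE PC the mean TPM was 1.03 ± 0.230 for Sorl1, 0.487 ± 0.263 for Stum, 0.467 ± 0.0569 for Hemgn, 0.413 ± 0.110 for Nxpe2 and 0.0800 ± 0.0300 for Gpr34. In bulk samples, fewer cells of a type and less RNA per cell cannot be told apart.

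Every iGC library was above every other library for 1724 of the genes tested (11.0%), the 5 members among them. A rise of 5 or more on the log2 scale over D6 in both iGC groups was rarer, with 29 genes, and these held Stum, Nxpe2 and Gpr34. In IgE PC against IgE iGC the log2 fold changes were -5.18 for Stum, -5.09 for Nxpe2, -4.85 for Gpr34, -5.45 for Hemgn and -5.22 for Sorl1. A fall of 4 or more was seen for 219 genes, the 5 members included, and of 5 or more for 89, with Gpr34 just outside. Across all genes 33.6% were called lower in that comparison by edgeR at an adjusted p under 0.05, and 32.8% and 32.4% were called higher in IgE iGC and IgG1 iGC than at D6; nothing is read from the members there.

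The isotypes were first compared among plasma cells. The choice of genes did not use this difference directly, but it used low levels in the same IgE PC libraries. A lower IgE PC side was therefore favoured in advance, and the members' calls and p-values here are not independent of the choice. All 5 members were lower in IgE PC than in IgG1 PC, with no overlap between the libraries, beside 30.7% of all genes called lower (edgeR's quasi-likelihood test, Benjamini-Hochberg adjusted p under 0.05) and 59.2% without overlap. The largest difference was that of Gpr34, at -3.95 on the log2 scale (SE 0.52, edgeR adjusted p = 1.26e-05), from 2.42 ± 1.67 CPM in IgG1 PC to 0.157 ± 0.0591 in IgE PC (SD, n = 3). Sorl1 differed by -3.80 (SE 0.22, edgeR adjusted p = 7.35e-09), from 130.5 ± 41.0 to 9.40 ± 1.69 CPM. Stum followed at -3.28 (SE 0.28, adjusted p = 2.94e-07 by edgeR), Hemgn at -2.96 (SE 0.22, 3.36e-08) and Nxpe2 at -2.82 (SE 0.28, 1.01e-06). The median over all genes tested was -0.05.

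The step from iGC to plasma cell was then followed in IgG1. The members' lower level in IgG1 PC was known when they were chosen, and high iGC levels chose them, so these values are a description with no test. The log2 fold change was -2.53 for Nxpe2 (SE 0.21), -2.22 for Gpr34 (SE 0.33), -2.13 for Hemgn (SE 0.16), -1.69 for Stum (SE 0.21) and -1.23 for Sorl1 (SE 0.19). Among all genes 29.0% were called lower by edgeR, and in rank from the lowest value the members were 51, 69, 83, 192 and 554. In IgE all 5 stood between 57 and 101. The difference between the 2 changes, IgE minus IgG1, was -4.00 for Sorl1, -3.48 for Stum, -3.32 for Hemgn, -2.62 for Gpr34 and -2.56 for Nxpe2; it contains the contrast that chose the genes and is not tested.

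**Figure D2:**
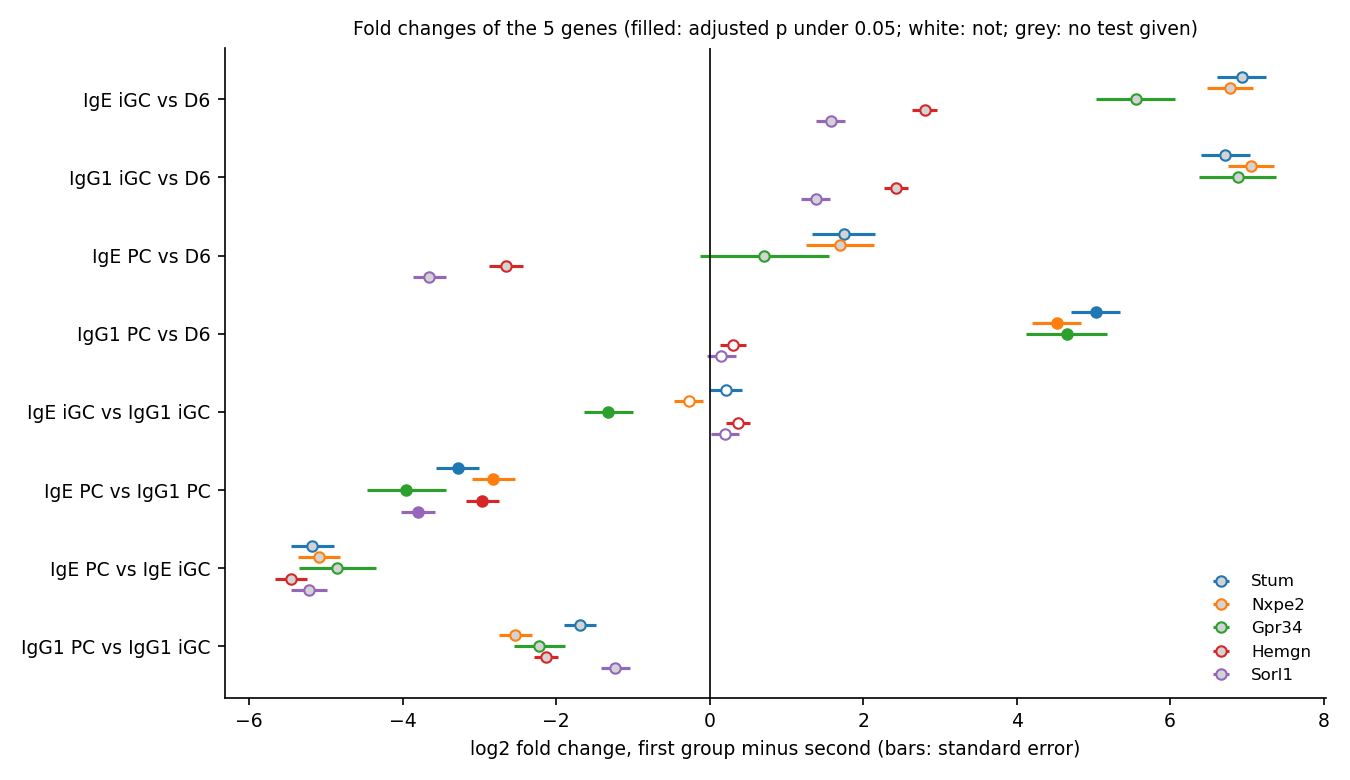
Fitted log2 fold changes of the 5 genes in 8 comparisons, first group minus second, with standard error bars; filled points passed an adjusted p of 0.05, white points did not, and grey points belong to comparisons given without a test. The members spread widest where D6 is the second group, and in IgE PC against IgG1 PC all 5 lie between -3.95 and -2.82.

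Relative to their own iGC mean, the IgE PC libraries kept little of each member. In replicates 1, 2 and 3 the level left was 2.94, 3.49 and 1.79% for Stum, 3.51, 2.58 and 2.66% for Nxpe2, 3.12, 4.76 and 2.25% for Gpr34, 2.05, 2.55 and 2.25% for Hemgn and 2.54, 3.21 and 2.27% for Sorl1. Of 10 B cell markers the median left was 32.6, 32.1 and 30.4%, and the lowest, the complement receptor gene Cr2, kept 9.06, 11.9 and 9.01%. The members were picked for this fall and the markers were not, so that the members lie below the markers follows from the choice.

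In IgG1 PC the members kept more, and the libraries disagreed. Sorl1 kept 27.3, 51.8 and 49.0%, Stum 17.2, 36.1 and 38.6%, and Hemgn 14.4, 27.7 and 25.5%. Nxpe2 kept 9.64, 24.5 and 16.7%, and Gpr34 9.32, 36.8 and 16.1%. Replicate 1 was the lowest for all 5 members. That library also had the highest plasma cell marker sum of the group (8086 TPM against 7401 and 6813) and the lowest sums of B cell markers (10880 against 11580 and 12030) and germinal centre markers (205.6 against 299.5 and 288.0); their part in the members' spread was not tested. Without replicate 1, all 5 members were still called lower in IgE PC than in IgG1 PC, and the IgG1 PC against IgG1 iGC value of Sorl1 was -0.99.

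**Figure D3:**
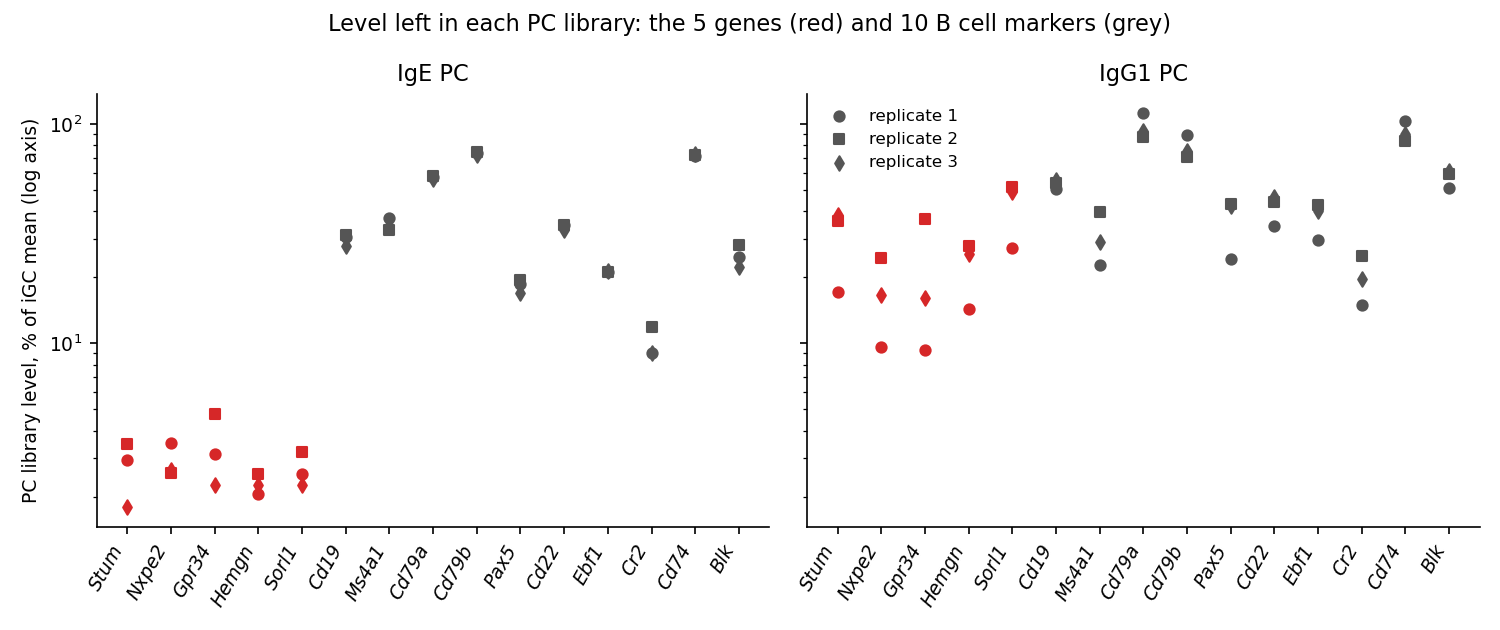
Level in each plasma cell library as a percentage of the iGC mean of the same isotype, on a log axis, for the 5 genes (red) and 10 B cell markers (grey); symbols give the replicate. In IgE PC the members lie between 1.79 and 4.76% as their choice implies, whereas in IgG1 PC the 2 sets overlap and replicate 1 is lowest for each member.

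Plasma cells were also set against D6, the start of the 2 days off the feeders. A low D6 level entered the choice of genes, which favoured a higher IgG1 PC side in advance. The IgG1 PC libraries were not named in the choice, but the members' levels in them were known. The members' calls and p-values here are therefore not independent of the choice. In IgG1 PC, Stum, Nxpe2 and Gpr34 were still far above D6, by 5.03 (SE 0.32, edgeR adjusted p = 5.48e-09), 4.52 (SE 0.32, 1.32e-08) and 4.65 (SE 0.53, 1.48e-06) on the log2 scale. These are 3 of 5 members called higher, beside 35.9% of all genes. Hemgn and Sorl1 overlapped D6, with log2 fold changes of 0.31 (95% interval -0.02 to 0.63, edgeR adjusted p = 0.109) and 0.15 (-0.21 to 0.51, 0.482). Both results depend on the setting: without IgG1 PC replicate 1, Hemgn was 0.53 higher (adjusted p = 6.37e-05 by edgeR) and Sorl1 0.39 higher (0.00474). On the deposited TPM scale both turned lower, Hemgn to -0.49 (limma adjusted p = 0.0677) and Sorl1 to -0.59 (0.0178), and with total-count scaling Sorl1 was at -0.12.

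Both IgE PC and D6 entered the choice of genes, so their difference is given with no test; among all genes 36.9% were called higher and 39.5% lower in IgE PC. Hemgn was below D6 by -2.65 (SE 0.22) and Sorl1 by -3.65 (SE 0.22), so that Sorl1 stood at 0.0797 times its D6 level. The libraries of Stum and Nxpe2 stayed above those of D6, by 1.75 (SE 0.41) and 1.70 (SE 0.44). Their summed counts were 200 against 78 for Stum, a ratio of 3.40, and 106 against 43 for Nxpe2, a ratio of 3.27. Gpr34, with 15 against 12 counts, gave 0.71 (SE 0.84), too few counts to give an order of the groups. On the deposited TPM scale the Nxpe2 difference was 0.56 and that of Gpr34 was -0.05.

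Between the IgE and IgG1 iGC groups, Gpr34 alone of the members was called. Both groups entered the choice of genes through their level over D6, not through this difference. It was lower in IgE iGC by -1.32 on the log2 scale (SE 0.32, edgeR adjusted p = 0.0323), at 4.65 ± 0.151 CPM against 11.6 ± 2.45 CPM (SD, n = 3), where 1.88% of all genes were called lower. The call was lost without any 1 of the 3 IgE iGC libraries and without IgG1 iGC replicate 2 or 3, with differences of -1.35 to -1.18 and edgeR adjusted p of 0.0988 to 0.143, and without the count filter (0.135); it held without IgG1 iGC replicate 1. The 4 other members did not pass: Hemgn differed by 0.37 (95% interval 0.07 to 0.66, edgeR adjusted p = 0.246), Stum by 0.21 (-0.20 to 0.61, 0.738), Sorl1 by 0.20 (-0.16 to 0.56, 0.712) and Nxpe2 by -0.27 (-0.64 to 0.11, 0.597). The libraries of the 2 iGC groups did not overlap for any member, beside 27.5% of all genes without overlap. When only these 2 groups were fitted, all 5 members passed and the number of genes called rose from 607 to 1503, with adjusted p of 0.0166 for Stum, 0.00385 for Nxpe2, 0.00676 for Hemgn and 0.0253 for Sorl1 (edgeR).

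The members were next compared with one another and with other genes by the shape of their 5 group means. The measure was the root mean square difference of mean-centred log2(CPM + 0.5) over the 5 groups, among 9853 genes that reached 5 CPM in a group. Stum and Nxpe2 were 0.34 apart. Hemgn and Sorl1 were 0.55 apart, and Stum and Sorl1 1.80. Outside the members, the 3 genes nearest to Stum included Ccr6 (0.35), a chemokine receptor gene, and Klhl14 (0.70), and those nearest to Nxpe2 also included Ccr6 (0.30) and Klhl14 (0.54). Ccr6 went from 4.60 ± 0.930 CPM at D6 to 166.5 ± 11.5 in IgE iGC and 173.1 ± 6.39 in IgG1 iGC, then 7.12 ± 0.769 in IgE PC and 53.9 ± 19.2 in IgG1 PC (SD, n = 3).

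Gpr34 was nearest to Cd2 (0.22), an adhesion receptor gene, Cdh17 (0.30) and Il12a (0.32). These 3 were higher in IgG1 iGC than in IgE iGC by mean, which the match favours because it used both group means. Cd2 was at 44.0 ± 1.21 against 25.6 ± 2.01 CPM. Hemgn was nearest to March1 (0.31), an E3 ubiquitin ligase gene, Ell3 (0.31), an elongation factor gene, and Emid1 (0.35). Sorl1 was nearest to Cd72 (0.24), a B cell co-receptor gene, Il9r (0.36) and Lilrb4a (0.36), whose counts were fractional in all 15 libraries and are uncertain because close copies share reads. The list is not stable for the members that were near 0 at D6: with a pseudocount of 2, 1 of the 3 genes stayed for each of Stum, Nxpe2 and Gpr34.

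Partners of the members by family or pathway were counted by list. Over all genes, 36.3% and 36.0% were called lower in IgE iGC and IgG1 iGC than at D6, 27.4% higher in IgE PC than in IgG1 PC, 30.7% lower there, and 30.1% higher in IgG1 PC than in IgG1 iGC. Of the other VPS10 receptors, Sort1, Sorcs1 and Sorcs2 passed the filter, and all 3 were called lower in both iGC groups than at D6; the highest mean was 1.09 TPM for Sorcs2 at D6. Of 13 retromer and sorting partner genes, 6 were called higher and 4 lower in IgE iGC than at D6 (median 0.12, beside -0.04 over all genes). In IgE PC against IgG1 PC, 5 were higher and 5 lower (median 0.01), where Sorl1 differed by -3.80; Vps35, the retromer core subunit gene, was 0.49 higher there (SE 0.10, edgeR adjusted p = 0.000927). In IgG1 PC against IgG1 iGC, 2 were higher and 10 lower (median -0.49).

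In the Nxpe family, Nxpe3 was at 20.3 ± 0.973 TPM at D6 and 24.7 ± 0.440 in IgE iGC, where Nxpe2 went from 0.243 ± 0.0208 to 21.8 ± 1.37 TPM (SD, n = 3). Nxpe4 stayed at or below 0.207 TPM and Nxpe5 was at or near 0. Among receptors for lysophosphatidylserine, P2ry10 and Gpr174 were present at every stage. P2ry10 was at 54.7 ± 2.56 TPM at D6, 63.6 ± 1.91 in IgE iGC and 35.2 ± 2.85 in IgE PC, and was 0.89 higher in IgE PC than in IgG1 PC (SE 0.14, edgeR adjusted p = 0.000111). Gpr174 was also higher there, by 0.85 (SE 0.19, edgeR adjusted p = 0.00134), while Gpr34 was lower. In IgG1 PC against IgG1 iGC both fell, P2ry10 by 1.10 (SE 0.14, edgeR adjusted p = 1.47e-05) and Gpr174 by 1.22 (SE 0.18, 7.07e-05), in the direction of Gpr34. Of 6 genes in this list besides Gpr34, 3 were called higher and 1 lower in IgE PC than in IgG1 PC (median 0.43). Gpr171, P2ry12, P2ry13 and P2ry14, relatives of Gpr34 in sequence, gave 2 higher and 0 lower of 4 there (median 0.44).

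Of 13 receptors that position B cells in lymphoid tissue, 9 were called higher and 1 lower in IgE iGC than at D6 (median 0.83), and 9 and 2 in IgG1 iGC (median 0.92), beside 32.8% and 32.4% of all genes called higher. In IgE PC against IgG1 PC, 4 were higher and 8 lower (median -0.75). Ccr6 differed by -2.93 there (SE 0.23, edgeR adjusted p = 1.87e-07) and Ccr7, a lymph node homing receptor gene, by -3.25 (SE 0.14, 2.37e-10). Of 15 genes tied to resting B cells and FOXO1 or KLF2, 10 were higher and 4 lower in each iGC group than at D6 (medians 1.27 in IgE and 1.18 in IgG1). Klf2 itself differed from D6 by -0.29 in IgE iGC (edgeR adjusted p = 0.0328) and by -0.24 in IgG1 iGC (0.0671). For 19 CD40 and NF-kB response genes the medians over D6 were 0.04 in IgE iGC (8 higher, 8 lower) and 0.27 in IgG1 iGC (11 higher, 6 lower). In IgE PC against IgG1 PC, 16 of these 19 were lower and 1 higher (median -0.49), beside 30.7% of all genes called lower and 27.4% higher. Of 11 IL-4 response genes, 2 were higher and 7 lower in IgE iGC than at D6 (median -0.77).

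Genes beside the members were also examined. Of 40 annotated genes within 150 kb, 23 passed the count filter, and 7 were called higher in both iGC groups than at D6, beside 29.6% of all genes, a share near the background. As many, 7, were called lower in both, beside 33.3% of all genes. Among these, Gm36933 near Stum differed from D6 by -5.48 in IgE iGC and -3.39 in IgG1 iGC. Nyx near Gpr34 differed by -5.05 and -3.68. Among those tested, the nearest to Stum was Itpkb, 7.6 kb away, and it differed from D6 by 0.17 in IgE iGC and 0.06 in IgG1 iGC, and Trmo, the nearest to Hemgn at 4.6 kb, by 0.09 and -0.08. Upstream of Stum by 25.3 kb, the lincRNA Gm37267 had 6, 8 and 5 counts at D6, 20, 22 and 10 in IgE iGC, 23, 39 and 25 in IgG1 iGC, 0, 0 and 1 in IgE PC, and 6, 27 and 18 in IgG1 PC. It was 1.78 higher in IgE iGC than at D6 and 2.34 higher in IgG1 iGC. Beside Gpr34, the related orphan receptor gene Gpr82, 20.5 kb away, had 0, 0 and 2 counts at D6, 17, 21 and 18 in IgE iGC, and 30, 45 and 37 in IgG1 iGC. Its summed counts gave ratios to D6 of 35.4 in IgE iGC and 62.5 in IgG1 iGC, on very few D6 counts. Gm37267 and Gpr82 passed the count filter through their iGC libraries, so their rise was favoured in advance and is a description. Gpr82 was not called between IgE PC and IgG1 PC, at 6 against 20 counts in all (edgeR adjusted p = 0.108), where Gpr34 was. Beside Nxpe2, the pseudogene Nxpe1-ps, 64.9 kb away, rose by 3.02 (SE 0.30) and 3.06 (SE 0.29) and differed by -3.19 between IgE PC and IgG1 PC (SE 0.36, edgeR adjusted p = 2.20e-06). Its mean level was 1.20 ± 0.404 TPM at D6, 8.66 ± 0.708 in IgE iGC, 8.86 ± 0.889 in IgG1 iGC, 0.223 ± 0.145 in IgE PC and 2.503 ± 0.985 in IgG1 PC (SD, n = 3).

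Near Sorl1, the lincRNA Gm39321, 17.7 kb upstream, had 3 counts in all at D6, 83 in IgE iGC, 88 in IgG1 iGC, 19 in IgG1 PC and 0 in IgE PC. Its ratios to D6 were 35.0 and 32.8 in the iGC groups. Gm16214, annotated antisense inside Sorl1, had 7 counts at D6, 58 in IgE iGC, 46 in IgG1 iGC and 3 in each plasma cell group. Between IgE PC and IgG1 PC it was not called (edgeR adjusted p = 0.777). Gm39321 and Gm16214 also passed the count filter through their iGC libraries, so their rise is a description. Nxpe2 lies within the span of Nxpe4, and Gpr34 within that of Cask, each on the opposite strand. The reads are strand-specific per the labels, but the strand setting of the counting is not given in the sources used here. Cask differed from D6 by -0.33 and -0.39 on the log2 scale, at 2.86 TPM at D6 and 2.31 and 1.63 TPM in the iGC groups. The counts of the 5 members were whole numbers in all 15 libraries.

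**Figure D4:**
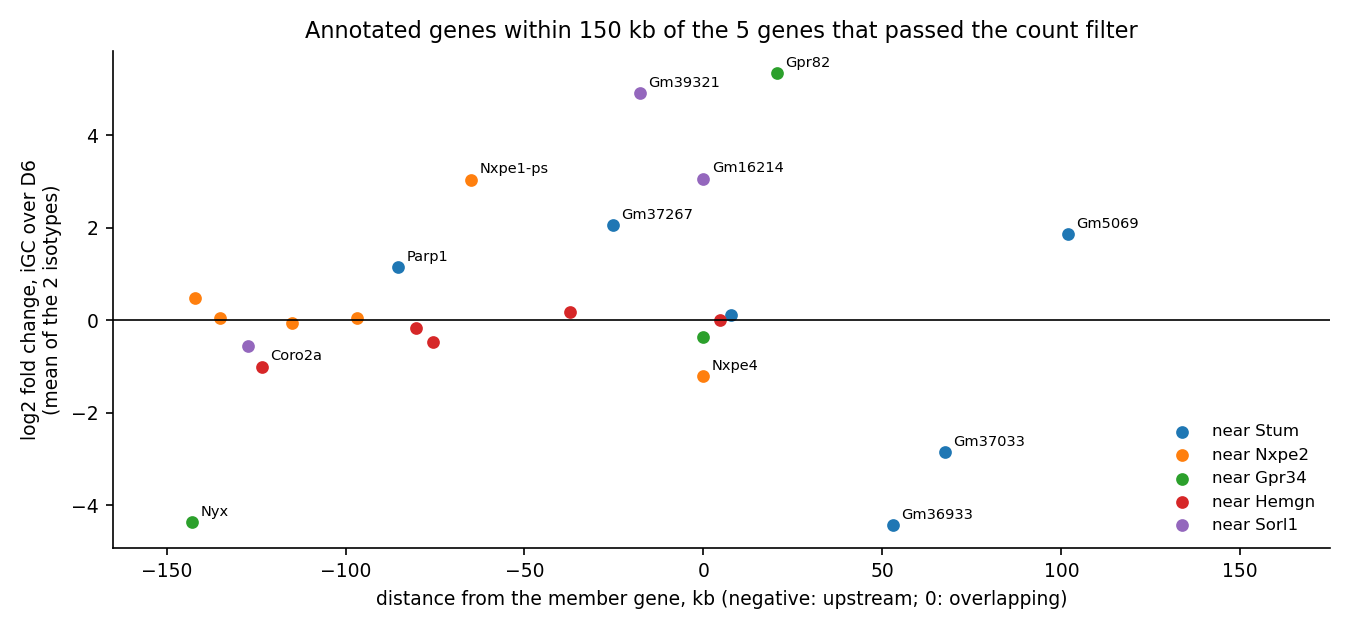
Log2 fold change of iGC over D6 (mean of the 2 isotypes) for the 23 neighbouring genes that passed the count filter, by distance from the member in kb, negative upstream and 0 overlapping. Gpr82 beside Gpr34 and Gm39321 beside Sorl1 are highest, Gm36933 near Stum and Nyx near Gpr34 are lowest, and the tested genes nearest to Stum and Hemgn, Itpkb and Trmo, lie near 0.

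Markers of other cells were measured beside the members. The 15 markers of fibroblasts and of the feeder line included Thy1, Tnfsf13b and Cd40lg, at means of 64.4, 36.7 and 29.1 TPM at D6. Postn was listed at 0 in 4 of the groups. The 15 markers summed to 199.4 to 286.0 TPM at D6, 36.7 to 47.4 in IgE iGC, 29.9 to 43.5 in IgG1 iGC, 8.21 to 12.51 in IgE PC and 33.8 to 69.8 in IgG1 PC. These sums were highest at D6, where Stum and Nxpe2 were lowest, and their part in the members' levels was not tested. The 14 macrophage and microglia markers, the cells in which Gpr34 is best known, summed to 13.3 to 25.9 TPM over all libraries, with C1qa listed at 0 in every group and at most 2 markers above 1 TPM. Cd68 carried most of the sum, at 11.0 ± 0.701 TPM at D6 and 17.5 ± 0.789 in IgE iGC. Of the 5 that passed the count filter, 4 were called lower in IgE PC than in IgG1 PC (median -2.31). The share of all genes called lower there was 30.7%. Against D6, 2 of the 5 were called higher and 2 lower in each iGC group. Tmem119 differed from D6 by -3.07 in IgE iGC and by -2.69 in IgG1 iGC, where Gpr34 was higher in both. Lyz2 differed from D6 by -0.51 in IgE iGC, which was not called, and by -2.26 in IgG1 iGC. Itgam was at 0.223 ± 0.0351 TPM at D6, 1.65 ± 0.276 in IgE iGC, 2.36 ± 0.595 in IgG1 iGC, 0.190 ± 0.0755 in IgE PC and 0.693 ± 0.461 in IgG1 PC, highest in IgG1 iGC as Gpr34 was. Adgre1 was lower in IgE iGC than in IgG1 iGC by -1.42 (edgeR adjusted p = 0.0245), as Gpr34 was, but its D6 level of 1.02 ± 0.0896 TPM was its highest. The part of such cells in the Gpr34 values was not tested. The 12 erythroid markers, of the lineage in which Hemgn is best known, summed to 4.82 to 24.3 TPM in IgE iGC, 4.08 to 16.7 in IgG1 iGC, 1.85 to 2.92 at D6, 1.67 to 5.04 in IgG1 PC and 0.0600 to 0.490 in IgE PC. Only 1 of them exceeded 1 TPM in any group, the globin gene Hbb-bt, and Epb42 was listed at 0 in all groups. Hbb-bt was at 5.10, 4.33 and 23.6 TPM in IgE iGC, beside 33.8, 32.8 and 35.1 TPM for Hemgn. Like Hemgn, the erythroid sums were higher in both iGC groups than at D6 and lowest in IgE PC. The part of such cells in the Hemgn values was not tested. The 8 neuron markers summed to 5.29 to 6.18 TPM at D6, 7.07 to 8.00 in IgE iGC, 8.98 to 9.74 in IgG1 iGC, 0.450 to 0.630 in IgE PC and 1.77 to 3.43 in IgG1 PC. Gad1 carried most of it, at 6.80 ± 0.380 TPM in IgE iGC and 0.153 ± 0.0153 in IgE PC, while Snap25 and Nefl were listed at 0 in all groups; their part in the members' levels was not tested. The 10 T cell markers summed to 60.1 to 65.8 TPM at D6, 19.9 to 23.45 in the iGC groups, 6.99 to 10.1 in IgG1 PC and 1.99 to 2.16 in IgE PC. Tcf7 and Lck carried most of the D6 sum, at 49.4 ± 1.55 and 10.1 ± 0.694 TPM, while Cd3e and Cd4 were listed at 0 there. The 10 neutrophil and mast cell markers summed to at most 3.92 TPM.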

How the data were processed

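Polyadenylated RNA from 15 libraries (5 groups, 3 replicates each) was read as 76 bp single-end reads, per the labels' protocols. The authors deposited, per the file headers, RSEM expected counts and TPM values for 51912 Ensembl gene identifiers; 51633 had a symbol. The submitters' processing notes name cutadapt 1.9.1, STAR 2.5.2a, RSEM 1.3.0, DESeq2 1.12.3 and GRCm38; the annotation and strand setting are not given in the sources used here. The deposited expected counts were rounded, filtered (filterByExpr, minimum count 10, total 15), scaled by TMM and fitted with 1 mean per group over all 15 libraries by edgeR 4.0.16 (glmQLFit, glmQLFTest, R 4.3.3), with Benjamini-Hochberg adjustment over 15692 genes at 0.05 (25 member tests in 5 comparisons). The biological coefficient of variation was 10.4%, with 10 residual degrees of freedom. Standard errors are log2 fold changes divided by the square root of F and are approximate. The fit was tested on simulated data.

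The members, gene lists and marker lists were chosen with earlier results of these data known, among them the members' change from iGC to plasma cells in both isotypes. The 5 comparisons fitted for the members share libraries with those that chose them. IgE PC against D6 and IgG1 PC against IgG1 iGC rest on values the choice used or knew, and their p-values are not given for members. The p-values given for IgE PC against IgG1 PC and for IgG1 PC against D6 rest in part on libraries the choice used and are not independent of it. Named genes are the members, the 3 genes nearest to each in pattern, and family partners; some that met the rule are not reported here. Motifs, neighbours within 150 kb and levels left in plasma cells were added after the data were seen. Symbols came from a table of Ensembl names, positions from GENCODE vM21 and promoters from RefSeq (GRCm38.p6). The labels call the replicates biological but do not name animals or cultures, so p-values measure the spread between these samples. Alternatives were DESeq2 1.42.0, limma 3.58.1 on log2(TPM + 0.1), other scalings, no count filter and a replicate block. Fits of only the groups compared, fits leaving out each library, and another pseudocount were also tried. The number of unmapped sample columns was 0.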

Additional observations from a re-analysis of the deposited data

Results flagged for a closer look

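The difference between plasma cells and D6 was not the same in the 2 isotypes for any of the 5 members. The IgE minus IgG1 difference of the log2 changes equals that between IgE PC and IgG1 PC, because D6 is shared: -3.95 for Gpr34, -3.80 for Sorl1, -3.28 for Stum, -2.96 for Hemgn and -2.82 for Nxpe2. Each was called by edgeR, but low IgE PC levels entered the choice of genes, so these calls are not independent of it. For Hemgn and Sorl1 this set a level below D6 in IgE PC beside a level that overlapped D6 in IgG1 PC. For iGC cells against D6 the isotypes differed for Gpr34, by -1.32 (edgeR adjusted p = 0.0323), a call lost in 5 of 6 fits without a library.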

How the results depend on the processing

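In the 5 comparisons fitted for the members, 306 member values kept their direction and side of the threshold over the alternatives. Of the others, 8 lost their call, 6 gained a call and 4 changed direction. These counts include IgE PC against D6 and IgG1 PC against IgG1 iGC, which rest on values the choice used or knew. Their stability is therefore no support for a member's change. All 5 members stayed called in IgE PC against IgG1 PC under each alternative run, a comparison whose lower IgE PC side the choice favoured. Between the iGC groups the genes called numbered 1503 with only those groups fitted, 926 with DESeq2, 340 with limma on TPM and 324 to 404 with a library left out, against 607; with only those groups fitted, Stum (0.20), Nxpe2 (-0.27), Hemgn (0.36) and Sorl1 (0.19) became called. Gpr34 lost its call there without the count filter (-1.33, adjusted p = 0.135), with limma on TPM (-1.29, 0.116) and in 5 of 6 fits without a library (-1.48 to -1.18 over all 6). In IgG1 PC against D6, Sorl1 turned to -0.12 with total-count scaling and to -0.59 with limma on TPM (adjusted p = 0.0178), and Hemgn to -0.49 (0.0677); without a library the ranges were 0.15 to 0.53 for Hemgn and 0.00 to 0.39 for Sorl1. In IgE PC against D6, limma on TPM gave Nxpe2 0.56 and Gpr34 -0.05. With only those groups fitted, Gpr34 fell below the count filter there and gave no value. The cause of these changes was not tested.

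Total-count scaling moved the median over all genes from -0.05 to -0.30 in IgE PC against IgG1 PC, from -0.04 to -0.57 in IgE PC against D6, from 0.01 to -0.27 in IgG1 PC against D6 and from 0.01 to -0.22 in IgG1 PC against IgG1 iGC. The share of calls that were higher went from 47.2 to 23.8%, 48.3 to 26.8%, 49.96 to 34.97% and 50.9 to 32.1%. With limma on TPM these shares were 29.6, 16.9, 17.7 and 15.7%.

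The same replicate numbers recur in every group. Deviations of same-numbered libraries correlated at -0.119 to 0.0802 over pairs of groups (mean -0.00679). Based on 3 libraries per group, these values cannot settle whether libraries with the same number had a common origin. With the replicate number as a block, the genes called were 580 between the iGC groups, 9006 in IgE PC against IgG1 PC, 9153 in IgG1 PC against IgG1 iGC, 11168 in IgG1 PC against D6 and 11927 in IgE PC against D6, against 607, 9118, 9272, 11281 and 11983 without it. No member's call changed in the comparisons whose p-values are given for members.

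Depth limits Gpr34 most: its 12 counts at D6 and 15 in IgE PC leave the order of these groups undetermined. With 3 libraries per group, a single library such as IgG1 PC replicate 1 can decide a call.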
